A study of Homo sapiens with 12 samples.

Results

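The genes described here are the protein-coding genes of human chromosome 19 whose symbol is ZNF, digits and, for some, a closing capital letter (as in ZNF585A), with at least 50 estimated counts summed over 12 RNA sequencing libraries. They were placed by Ensembl ID in GENCODE release 29 (GRCh38), and 179 of the 246 such genes reached the minimum; 3 readthrough loci were left out. RNA came from SCC-15, an established oral squamous cell carcinoma line, with a control hairpin (labelled shRNA-NC, here NC) or with 1 of 3 hairpins that target FMOD, the gene of the matrix proteoglycan fibromodulin (shRNA1-FMOD, shRNA2-FMOD and shRNA3-FMOD, here shRNA1, shRNA2 and shRNA3). Each of the 4 groups had 3 libraries and was harvested at 48 hours, and the question was what loss of FMOD does to the transcriptome. The labels do not say whether a hairpin line is 1 clone or a pool, nor whether the 3 libraries of a group are separate cultures, so p-values measure only the spread between these libraries, which may be technical.

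Most genes named ZNF with a number encode C2H2 zinc finger proteins, and many of those on chromosome 19 join an array of DNA-binding fingers to a KRAB domain. The KRAB domain binds TRIM28 (KAP1), a scaffold that brings in the histone methyltransferase SETDB1 and heterochromatin proteins of the CBX family, and many of these proteins silence transposable elements. The genes arose by repeated tandem duplication and stand in clusters of close relatives, with large groups in 19p12, 19q13.2 and neighbouring bands, and 19q13.4.

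Libraries held 17286975 to 19567248 counts after rounding. Before any result on the members, 2 features of the libraries have to be stated. The NC libraries stood apart from all 9 hairpin libraries: the correlation of log2 CPM (counts scaled to the library's total) across genes was 0.987 between NC libraries and 0.773 to 0.795 between NC and hairpin libraries, against 0.961 to 0.989 among 7 hairpin libraries. Libraries 1 and 2 of shRNA3 stood apart from those 7 (0.897 to 0.921) while correlating at 0.987 with each other. Every comparison with NC rests on these NC libraries, and an effect of the FMOD hairpins cannot be told apart from any other difference between the NC cells and the hairpin cells. Whether the NC cells and the hairpin cells share 1 origin was not tested. FMOD itself had 2, 2 and 3 counts in the NC libraries and 0 in all 9 hairpin libraries, which is at the limit of detection and was not tested. All 9 squamous epithelial markers examined were at 1 CPM or more in every library, but their levels moved in opposite directions between NC and the hairpins. KRT5 fell with each hairpin, from 1112 ± 49.5 CPM (SD, n = 3) in NC to 22.2 ± 6.79, 80.5 ± 1.45 and 63.2 ± 9.63, as did CDH1 (E-cadherin), from 356 ± 12.4 to 39.7 ± 3.07, 53.7 ± 3.02 and 55.8 ± 7.58. KRT14, KRT6A and KRT17 rose with each hairpin, KRT14 from 8.36 ± 1.93 CPM to 57.6 ± 2.40, 24.6 ± 0.887 and 119 ± 80.8. The summed levels of 5 fibroblast markers were 62.6 to 65.4 CPM in NC and 16.4 to 68.7 with hairpins. Most of that sum was COL1A1, at 46.0 CPM in NC, which was lower with shRNA1 only. COL1A2, PDGFRB and LUM fell with each hairpin, PDGFRB from 11.8 CPM to 0.795, 1.10 and 0.632, and COL3A1 was near 0 throughout. The sums of 3 leukocyte markers were 59.7 to 78.9 CPM in NC and 45.1 to 182 with hairpins. Those of 3 endothelial markers were 19.5 to 25.2 and 4.01 to 14.1, with PECAM1 higher and CDH5 and VWF lower with each hairpin. Most of the leukocyte sum was CD68, at 69.6 CPM in NC and 78.7, 82.8 and 159 with shRNA1, shRNA2 and shRNA3. CD68 was higher with shRNA3 and for the mean of the 3 hairpins, but not with shRNA1 or shRNA2. PTPRC, another leukocyte marker, had at most 9 counts (0.46 CPM, library 2 of shRNA1), and CD3E, a T cell marker, at most 4 (library 2 of NC). The part of all these markers in the results was not tested.

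The total level of the members differed between hairpins, and with shRNA2 it stayed near that of NC when scaled by library totals. Their summed level was 1579, 1546 and 1571 CPM in the NC libraries, 1841, 1887 and 1652 with shRNA1, 1526, 1562 and 1561 with shRNA2, and 772, 775 and 1818 with shRNA3. The NC and shRNA2 values overlapped, those of shRNA1 lay above NC, and shRNA3 was split between libraries 1 and 2 and library 3. The factors of trimmed mean scaling (TMM), which the tests use, were 1.10 to 1.11 in NC and 0.979 to 1.02 with shRNA2. The overlap of NC and shRNA2 therefore holds for library totals only. The number of members with at least 1 CPM was 124 to 127 in NC, 152 to 154 with shRNA1, 146 to 148 with shRNA2, and 98, 100 and 156 with shRNA3. Between 27 and 33 members had no count in an NC library, against 3 to 8 in a hairpin library. In such bulk RNA, fewer cells reading a gene and less of its RNA per cell cannot be told apart.

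**Figure D1:**
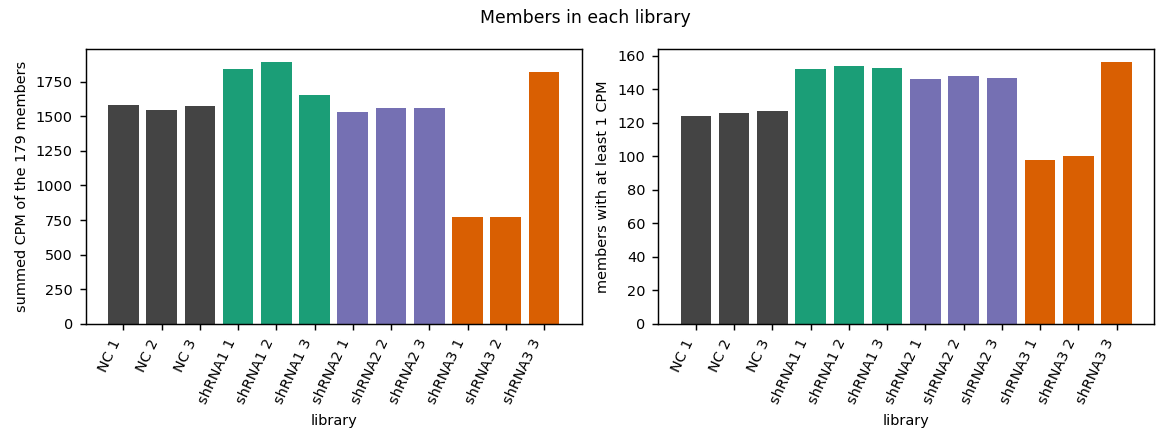
Summed CPM of the 179 members (left) and number of members with at least 1 CPM (right) in each of the 12 libraries, 1 bar per library, coloured by group. Libraries 1 and 2 of shRNA3, at 772 and 775 CPM, lie below all others, and every other hairpin library has more members at 1 CPM than any NC library.

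Of the 67 genes left out, 48 never exceeded 3 counts in any library, and these include 19 with no count at all. The rest exceeded 3 counts in at least 1 library. The members nearest to the minimum were ZNF578, ZNF404 and ZNF429 with sums of 57.98, 61.0 and 62.9 counts, and the genes just under it were ZNF577, ZNF492 and ZNF347 with 45.15, 41.16 and 35.5. The share reaching the minimum, 72.8%, was near that of other protein-coding genes of chromosome 19 (72.4%, 886 of 1223) and below that of ZNF genes on other chromosomes (86.3%, 227 of 263). It varied by cluster. In 19p12, a cluster of primate-expanded KRAB genes, 14 of 33 genes were members and 7 had no count in any library. In 19q13.2 all 5 were members, and in 19q13.4 79 of 98.

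Some members were read in only 1 kind of library. A gene was called on in a kind of library when each of its libraries had at least 1 CPM, and off when each had at most 3 counts. By this rule 3 members were on in NC and off in all 9 hairpin libraries (2.39% of all 18466 genes with at least 50 counts), and 9 were on in all 9 hairpin libraries and off in NC (0.569% of all genes). The first share, 1.68% of members, is near its background, and the other, 5.03%, is above it. The 3 were ZNF302, ZNF599 and ZNF836. The 9 were ZNF468, ZNF160, ZNF28 and ZNF83 of 19q13.41, ZNF260, ZNF529 and ZNF585A of 19q13.12, ZNF331 of 19q13.42 and ZNF675 of 19p12. The rule uses the NC and hairpin values themselves, so p-values given below for these members are no separate support. The same holds for other members with no count in NC. The count of 9 rose to 24 without libraries 1 and 2 of shRNA3, in which many members were low.

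ZNF302 (ENSG00000089335, chromosome 19, 34677639 to 34686397, plus strand) had 94, 128 and 120 counts in the NC libraries and none in any hairpin library. Its level of 6.30 ± 0.97 CPM (SD, n = 3) in NC was at least 40.5-fold higher than the limit of 3 counts per library with shRNA1, 36.9-fold with shRNA2 and 37.6-fold with shRNA3 (adjusted p = 1.49e-05 for the mean of the hairpins, edgeR's quasi-likelihood test with Benjamini-Hochberg adjustment over all genes, used throughout). ZNF599 (ENSG00000153896, 34758076 to 34773229, minus strand), its neighbour in 19q13.11, had 72, 80 and 114 counts in NC and likewise none in the 9 hairpin libraries (at least 28.7-fold lower, adjusted p = 2.98e-05). These are the only members at 0 in every hairpin library. ZNF181 lies between them on the chromosome and was read in all 12 libraries, at 3.93 to 5.04 CPM in NC and 0.521 to 10.6 CPM with hairpins, where the groups overlapped. ZNF836 (52153864 to 52171643, minus strand) had 43, 40 and 45 counts in NC, none with shRNA1 or shRNA2 and 1 in each shRNA3 library (adjusted p = 3.80e-06). ZNF404 was also at 3 counts or fewer in every hairpin library, but NC held only 18, 15 and 17 counts.

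In the other direction ZNF160 (ENSG00000170949, 53066606 to 53103436, minus strand) gave an even signal. It had no count in NC, 12.3, 14 and 10.2 CPM with shRNA1, 10.8, 9.45 and 9.76 with shRNA2, and 10.6, 11.9 and 12.8 with shRNA3. All 9 hairpin libraries lay close together, including libraries 1 and 2 of shRNA3. Levels were at least 73.3-, 60.3- and 70.8-fold above the limit in NC with shRNA1, shRNA2 and shRNA3 (adjusted p = 4.82e-08 for the mean).

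ZNF529 of 19q13.12 showed the same evenness, with no count in NC and 6.74 to 12.1 CPM in the hairpin libraries (at least 42.6-fold higher with shRNA2, adjusted p = 3.85e-08 for the mean). ZNF331, a gene of 19q13.42 known as imprinted in human tissues, had 0, 0 and 2 counts in NC and 85 to 219 with hairpins. ZNF83 had 1, 0 and 0 counts in NC and 93 to 208 with hairpins, highest in libraries 1 and 2 of shRNA3. ZNF585A had 0, 0 and 1 counts and 53 to 115 (adjusted p = 5.53e-07, 1.05e-06 and 1.59e-07 for ZNF331, ZNF83 and ZNF585A).

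ZNF468 had the highest level per kilobase of exon of the 9, 1.40 CPM per kilobase over the 12 libraries, and it was uneven. It had no count in NC, 40.6, 37.5 and 22.5 CPM with shRNA1, 19.7, 15.7 and 18.7 with shRNA2, and 5.26, 5.90 and 24.6 with shRNA3 (adjusted p = 5.14e-06). ZNF28 (0 in NC, 1.04 to 20.1 CPM) and ZNF260 (0 in NC, 3.18 to 18.2 CPM) were likewise lowest in libraries 1 and 2 of shRNA3. ZNF675 of 19p12 had 0, 3 and 1 counts in NC and 57 to 221 with hairpins. ZNF468 overlaps ZNF28 and ZNF320 on the same strand, and the use of strand and of shared reads in counting is not given in the sources used here, so counts of these 3 genes cannot be fully separated. Of the 179 members, 128 overlap another annotated gene, and close relatives share sequence that can split reads.

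Sequence before the start is shown for ZNF160, which is off in NC, and for the 3 members on in NC and off with hairpins. These single promoters do not stand for their kinds. Each stretch lies outside the annotated exons of GENCODE release 29 and comes from the RefSeq promoters (GRCh38.p14). It is given 5′ to 3′ on the gene's strand, with CpG dinucleotides, the sites of DNA methylation, in capitals. They lie at chr19:53103437-53103556 (minus strand), chr19:34677582-34677638 (plus), chr19:34773230-34773349 (minus) and chr19:52171644-52171763 (minus).
ZNF160: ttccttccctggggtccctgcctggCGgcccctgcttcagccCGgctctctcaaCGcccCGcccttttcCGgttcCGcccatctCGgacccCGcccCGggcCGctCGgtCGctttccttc
ZNF302: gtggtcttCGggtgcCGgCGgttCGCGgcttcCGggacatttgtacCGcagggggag
ZNF599: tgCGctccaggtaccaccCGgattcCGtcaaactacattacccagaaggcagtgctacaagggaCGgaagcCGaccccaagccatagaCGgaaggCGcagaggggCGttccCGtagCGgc
ZNF836: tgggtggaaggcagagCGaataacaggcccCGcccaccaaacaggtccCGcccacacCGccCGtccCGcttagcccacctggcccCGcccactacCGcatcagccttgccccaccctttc

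Over the 300 bases from 250 before to 50 after the start, these promoters hold 30, 28, 21 and 14 CpG. The 30 of ZNF160 is the highest value among members at 3 counts or fewer in every NC library, which ran from 9 to 30. RefSeq promoters were matched for 159 members, with a median of 21 CpG. Members at 3 counts or fewer in every NC library had a median of 20 CpG (34 matched) and the members silent in neither kind 21 (121 matched), beside 24 for ZNF genes of other chromosomes, 25 for other protein-coding genes of chromosome 19 and 14 over all 27305 promoters. These 2 groups of members differed by less than the spread within them, with quartiles of 15.25 and 25.75 for those silent in NC and 16.0 and 26.0 for those silent in neither kind. CCGGAAG, the core of ETS factor sites, was found on either strand in 47.2% of members' promoters (50% of those silent in NC, 46.3% of those silent in neither kind) in 37.6% of those of ZNF genes elsewhere, in 16.5% of those of other coding genes of chromosome 19 and in 10.7% of all promoters. TATAAA was found in 2.52% of members' promoters, 3.76%, 5.58% and 12% of those sets in the same order, and GGGCGG, the core of an SP1 site, in 66.0%, 64.0%, 76.7% and 44.6%.

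Silence in NC was wider than the strict rule shows. At most 3 counts in every NC library were found for 36 of 179 members (20.1%), against 3.28% of all genes with at least 50 counts, 1.76% of ZNF genes on other chromosomes (4 of 227) and 3.50% of other protein-coding genes of chromosome 19 (31 of 886). Of the 36, 22 had no count in any NC library. The same limit in every hairpin library was met by 4 members (2.23%, against 3.12% of all genes). Because the members had to reach 50 counts in all, those silent in NC had to be read with hairpins, so their direction is fixed by the choice. Their mean level over the hairpin libraries ranged from 0.342 to 21.2 CPM, with a median of 3.20.

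Most of these 36 stood in runs on the chromosome. In 19p12, 19q13.12 and 19q13.41 lay 29 of them, beside 14, 15 and 23 members in all. Of the 36, 26 belonged to 6 runs of at least 3 neighbouring members. Neighbours were counted among members only, so ZNF genes under 50 counts can lie between them. The run from ZNF429 to ZNF724 in 19p12 spans 1754 kb and holds 11 such genes. The stretch from ZNF578 to ZNF160 in 19q13.41 (52453576 to 53103436) held 12 members, of which 11 had at most 3 counts in each NC library. The exception was ZNF600, with 1, 2 and 5 counts there and 32 to 190 with hairpins. No other protein-coding gene with at least 50 counts lies in that stretch. Its 12 members summed to 0.11, 0.109 and 0.448 CPM in NC, 128, 131 and 79.3 with shRNA1, 74.7, 77.3 and 76.0 with shRNA2, and 34.6, 38.5 and 99.2 with shRNA3. Every hairpin library was far above every NC library, an order that largely follows from choosing a stretch of members silent in NC. Just before it on the chromosome stand 2 members that went the other way, ZNF836 and ZNF480. ZNF480 fell from 3.92, 4.64 and 3.86 CPM in NC to 0 to 0.409 CPM with hairpins, by 4.14 ± 0.38 on the log2 scale (SE; adjusted p = 2.84e-06). ZNF766 lies between them and was read in all 12 libraries.

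**Figure D2:**
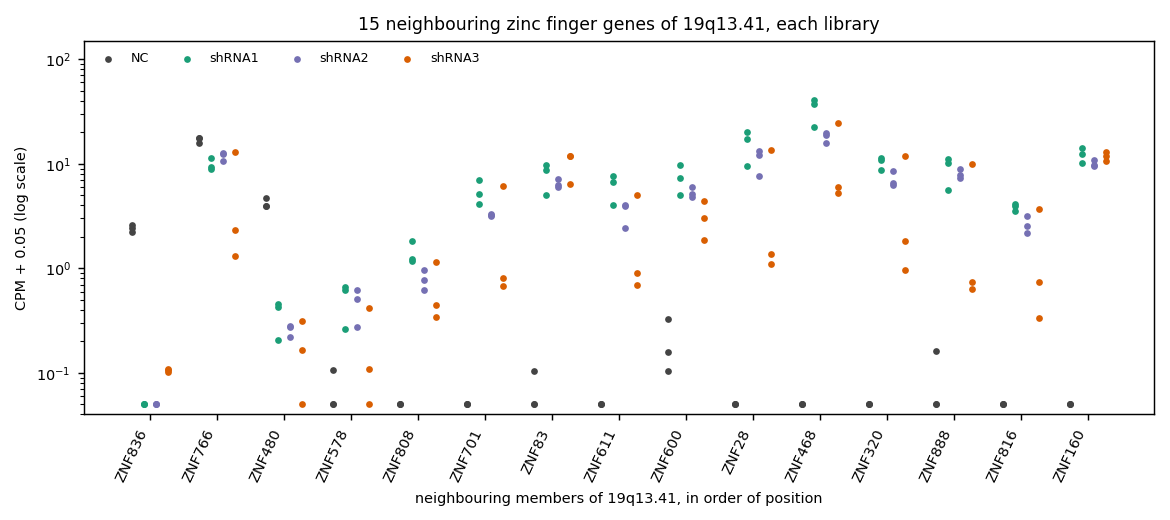
CPM plus 0.05 on a log axis for 15 neighbouring members of 19q13.41 in order of position, 1 point per library, coloured by group. From ZNF578 to ZNF160 the NC points lie at or near the lower limit and the hairpin points above them, while ZNF836 and ZNF480 show the reverse order.

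The run in 19q13.12 held ZNF566, ZNF260, ZNF529, ZNF567, ZNF420 and ZNF585A, 6 neighbouring members from 36445119 to 37172741 with 0, 1 and 2 counts in all in the NC libraries. Among them lie 7 ZNF genes under 50 counts, which are no members. The 6 members summed to 34.6 to 40.5 CPM with shRNA1, 22.4 to 27 with shRNA2, and 19.4, 18.2 and 43.4 with shRNA3. The member before them, ZNF146, was among the most abundant and did not pass the test. On the far side of the run ZNF585B, a close relative of ZNF585A, had up to 3.77 CPM in NC and 0.286 to 4.14 with hairpins, and did not pass for the mean. In 19p12 the 9 members from ZNF708 to ZNF254 all rose with the mean of the hairpins, and 6 of them had at most 3 counts in every NC library. The sum of the 9 was 0.497, 0.601 and 1.18 CPM in NC and 7.88 to 30.8 in the hairpin libraries. Another 13 ZNF genes of that stretch were under 50 counts. This stretch and the run in 19q13.12 were picked by their values, so the order of NC and hairpins in them is no separate result.

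**Figure D3:**
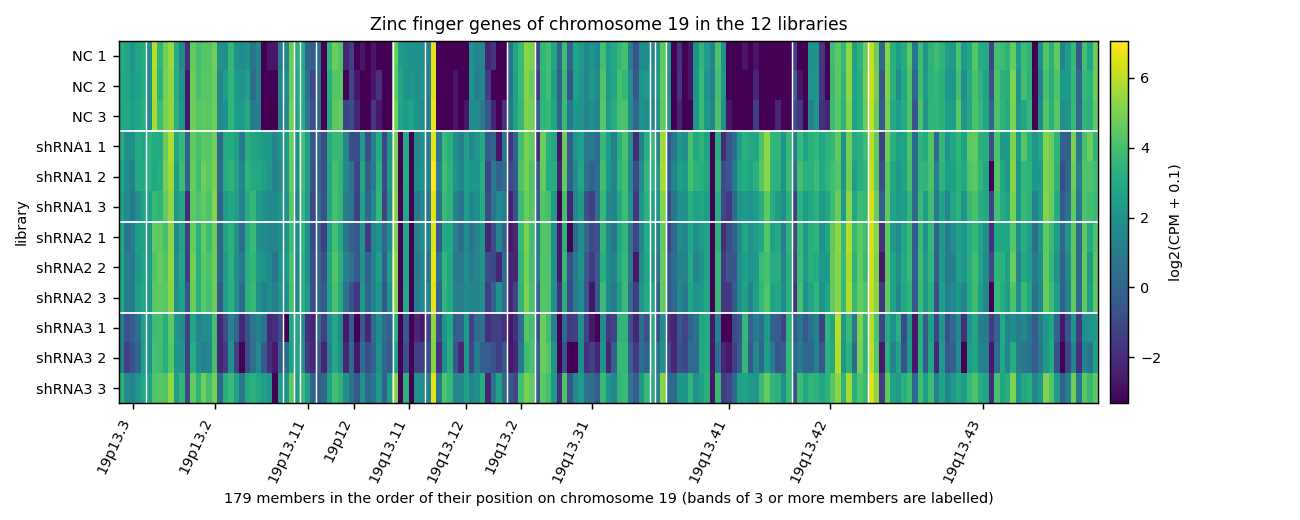
Level of each of the 179 members (columns, in order of position on chromosome 19, bands separated by white lines) in each library (rows), as log2(CPM + 0.1). Dark blocks in the 3 NC rows at 19p12, 19q13.12 and 19q13.41 are runs of members silent in NC, and the rows of shRNA3 libraries 1 and 2 are darker across most bands.

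Tested one by one, more members rose than fell with shRNA1 and shRNA2, under every setting tried, while the direction with more calls depended on the libraries or the processing for shRNA3, and on the libraries for the mean. Of 177 tested members, 57 rose and 22 fell with shRNA1 (26.8% and 30.6% of all 17532 tested genes rose and fell). With shRNA2 57 rose and 34 fell (24.6% and 28.4% of all genes). With shRNA3 51 rose and 46 fell (26.4% and 27.6% of all genes), but 43 rose and 49 fell with library totals in place of TMM (trimmed mean scaling) and 49 rose and 98 fell without its library 3. For the mean of the hairpins 55 rose and 41 fell (27.9% and 32.2% of all genes, 60.0% in either direction), and 47 rose and 17 fell with each of the 3 hairpins (16.0% and 19.7% of all genes). Of the 55 and the 47 that rose, 35 and 32 were silent in NC, so the choice fixed their direction. Without library 3 of shRNA3, 57 rose and 78 fell for the mean. All of these comparisons share the same 3 NC libraries. Median log2 fold changes of the members were 0.28, 0.06 and -0.31 with shRNA1, shRNA2 and shRNA3, against -0.02, -0.05 and -0.03 over all tested genes. For the mean of the hairpins the members' median was 0.03, with or without members at 0 in NC set at the limit of 3 counts. Scaling by library totals in place of TMM gave 0.20, -0.08 and -0.58, and -0.11 for the mean, so that the signs of the medians for shRNA2 and for the mean depend on the scaling. It also moved the median of all tested genes for the mean from -0.03 to -0.21.

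Without libraries 1 and 2 of shRNA3, 82 members rose and 45 fell for the mean of the hairpins, 54 and 40 of them shared with the fit of all 12 libraries. The members that fell with shRNA3 then numbered 23, 22 of them shared. For the fit with libraries left out, the share of all tested genes that was called is not given. Its counts therefore do not set members apart from other genes. Among the 138 tested members silent in neither kind of library, 20 rose and 37 fell for the mean, with a median of -0.21. These are calls of the fit of all 12 libraries, in which 27.9% of all tested genes rose and 32.2% fell. In 43 members every hairpin library lay above every NC library (13.6% of all genes with at least 50 counts), and in 36 every hairpin library lay below (29.8% of all such genes). Of the 43, 32 were silent in NC. The rises outside those 138 were those of members silent in NC, whose direction the choice fixes.

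**Figure D4:**
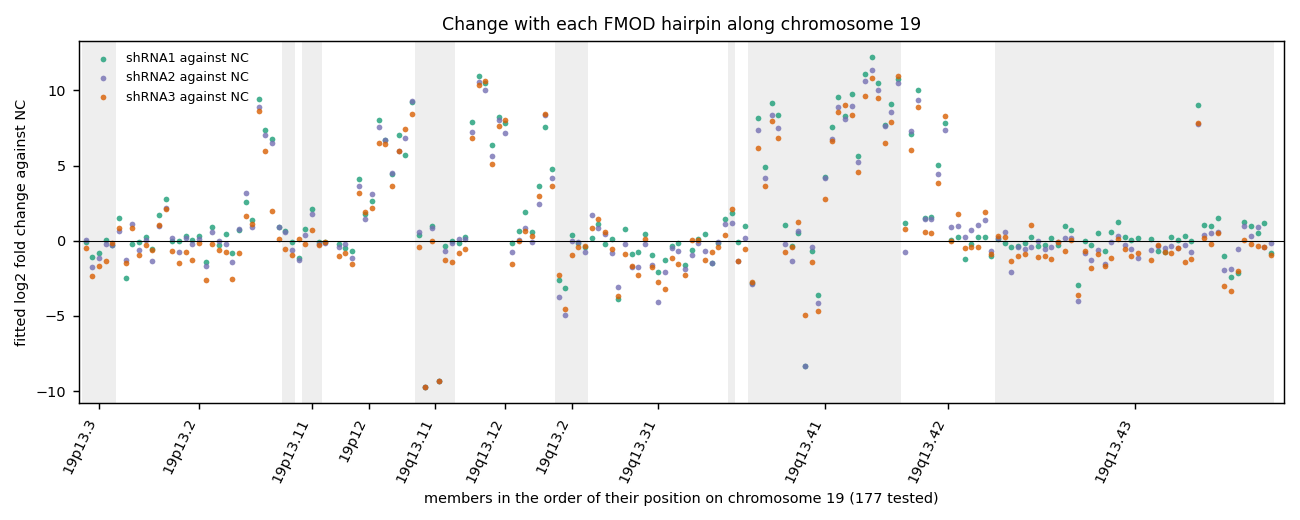
Fitted log2 fold change of the 177 tested members with each hairpin against NC, in order of position, with alternate bands shaded. Points above 5 and below -5 include genes with no count in a group, whose fitted size depends on the small count added by the fit and is no measure of how much they changed.

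Calls were counted by cluster, with no test between bands. Many rises belong to members silent in NC, whose direction the choice fixes, so each count is also given without them. In 19p12, 9 of 13 tested members rose and 3 fell for the mean of the hairpins, with a median of 3.65 (1.99 with members at 0 in NC set at the limit of 3 counts), and no other protein-coding gene of the band was tested. Of the 9, 6 were silent in NC, and among the other 7 members 3 rose and 3 fell (median -0.10). In 19q13.2 none of the 5 members rose and 3 fell, with a median of -0.50, beside 28 rises and 27 falls among 102 other genes of the band. In 19q13.4 26 of 78 rose and 15 fell, with a median of 0.22, and the other genes there gave 26 and 19 of 78. Without the 17 silent in NC, 9 of 61 members of 19q13.4 rose and 15 fell (-0.29). Within 19q13.4, 17 of 23 members rose and 4 fell in 19q13.41 (median 7.22, or 3.90 at the limit), 7 of 14 rose and 1 fell in 19q13.42 (1.08), and 2 of 41 rose and 10 fell in 19q13.43 (-0.43). Without the 14 silent in NC, 3 of 9 members of 19q13.41 rose and 4 fell (-0.71), while other coding genes there gave 2 rises and 4 falls of 13. Without those silent in NC, 5 of 12 members of 19q13.42 rose and 1 fell (0.70), and 1 of 40 of 19q13.43 rose and 10 fell (-0.45). Other coding genes gave 18 rises and 13 falls of 48 in 19q13.42 and 6 and 2 of 17 in 19q13.43. Outside the 3 clusters, 9 of 15 members of 19q13.12 rose and none fell (median 4.20, or 3.03 at the limit), 8 of them silent in NC. Among the other 7 members of that band 1 rose and none fell (0.23). In 19q13.31, where no member was silent in NC, 1 of 21 rose and 8 fell (-0.51). Other coding genes gave 18 rises and 8 falls of 43 in 19q13.12 and 7 and 6 of 18 in 19q13.31. Without libraries 1 and 2 of shRNA3 the rises in 19q13.4 numbered 40, and without library 3 of shRNA3 the falls there numbered 31.

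**Figure D5:**
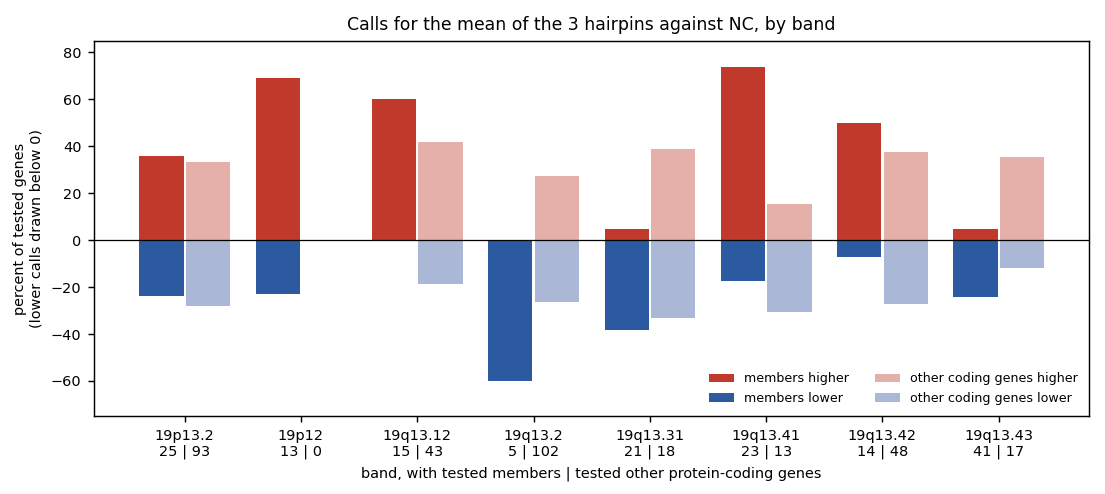
Percent of tested genes called higher (above 0) and lower (drawn below 0) for the mean of the 3 hairpins against NC, for members (dark bars) and other protein-coding genes (light bars) of 8 bands, with the number tested under each band. Members of 19p12, 19q13.12 and 19q13.41 were mostly called higher, most of these being silent in NC, while 19q13.2, 19q13.31 and 19q13.43 had more lower calls.

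Within 19p12 the rising members included ZNF254, with no count in NC and 3.15 to 5.88 CPM in 7 hairpin libraries but 0.800 and 0.636 in libraries 1 and 2 of shRNA3 (adjusted p = 1.23e-04). ZNF100 had 1, 0 and 0 counts in NC and 12 to 152 with hairpins (adjusted p = 7.72e-06). ZNF91, known for repressing SVA retrotransposons, had at most 0.224 CPM in NC and 0.926 to 3.24 CPM with hairpins (log2 fold change 4.20, adjusted p = 1.14e-05), a member chosen after its values were seen. ZNF431, the neighbour of ZNF708, went the other way, from 19, 19.8 and 23.6 CPM in NC to 12.5, 11.7 and 11.9 with shRNA1, 8.13, 9.57 and 8.36 with shRNA2 and 3.37, 3.93 and 10.7 with shRNA3. No hairpin library reached the lowest NC library, and the fall was 1.12 ± 0.22 on the log2 scale (SE; adjusted p = 8.04e-04).

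In 19q13.2 the strongest fall was that of ZNF780B (40028260 to 40056209, minus strand). Its level was 7.07, 6.12 and 6.22 CPM in NC, 0.925, 0.664 and 0.478 with shRNA1, 0.115, 0.115 and 0.337 with shRNA2, and 0.171, 0.116 and 0.369 with shRNA3. The groups did not overlap with NC, and the falls were 3.13 ± 0.41, 4.91 ± 0.47 and 4.53 ± 0.46 on the log2 scale (SE; adjusted p = 6.60e-05, 7.58e-06 and 1.23e-05). Its relative ZNF780A, next to it, had up to 13.6 CPM in NC and 1.20 to 17.9 with hairpins, and the groups overlapped (adjusted p = 0.748). ZNF546 also fell (log2 fold change -2.87, adjusted p = 3.22e-04), as did ZNF526 for the mean (-0.50, adjusted p = 0.00356).

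In 19q13.4 ZNF320 and ZNF525 had no count in NC and rose to 6.19 to 11.7 and 3.59 to 10.2 CPM in 7 hairpin libraries, with 0.914 and 1.79 CPM and 0.629 and 1.10 CPM in libraries 1 and 2 of shRNA3 (adjusted p = 1.11e-04 and 1.91e-04). ZNF772 of 19q13.43 fell from 14.7, 11.7 and 11.7 CPM in NC to 0.116 to 2.22 CPM with hairpins, by 3.52 ± 0.45 on the log2 scale (SE; adjusted p = 3.57e-05). ZNF256 was the only member of 19q13.43 silent in NC, with no count there and 12 to 85 with hairpins.

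The members with the highest level per kilobase of exon were ZNF146, ZNF787 and ZNF358, at 22.2, 19.3 and 12.5 CPM per kilobase, against a median of 0.907 over members. ZNF146 (OZF, a protein made almost only of zinc fingers) had 94.8 to 107 CPM in NC, 94.2 to 134 in 7 hairpin libraries and 40.5 and 34.6 in libraries 1 and 2 of shRNA3, and did not pass the test with any hairpin (adjusted p = 0.397, 0.680 and 0.0841). ZNF787 had 65.2 to 74.3 CPM in NC and 59.0 to 87.4 with hairpins, where the groups overlapped (adjusted p = 0.122 for the mean, 0.0407 without libraries 1 and 2 of shRNA3). ZNF358 fell from 61.0, 56.6 and 53.1 CPM in NC to 8.38, 7.31 and 13.0 with shRNA1, 23.5, 18.6 and 21.0 with shRNA2, and 14.3, 15.5 and 18.5 with shRNA3. That fall was 1.76 ± 0.16 on the log2 scale for the mean (SE; adjusted p = 2.71e-06).

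Hairpins were also compared with each other. Between shRNA1 and shRNA2 16 members differed (12.3% of all tested genes), between shRNA1 and shRNA3 38 (30.0% of all genes) and between shRNA2 and shRNA3 4 (8.40% of all genes), which are 9.04%, 21.5% and 2.26% of the 177 tested members and under the background in each case. In the first of these 11 were higher and 5 lower with shRNA1 (5.79% and 6.51% of all genes), in the second 29 were higher and 9 lower with shRNA1 (11.9% and 18.1%), and in the last 1 was higher and 3 were lower with shRNA2 (1.92% and 6.48%). ZNF780B was higher with shRNA1 than with shRNA2 by 1.78 ± 0.49 and than with shRNA3 by 1.40 ± 0.48 on the log2 scale (SE; adjusted p = 0.0362 and 0.0453). Its levels with shRNA2 and shRNA3 were near the limit of 3 counts per library. ZNF358 was lower with shRNA1, with log2 differences of -1.19 ± 0.22 and -1.01 ± 0.22 (SE; adjusted p = 0.00755 and 0.00972). Counts of such members moved widely when a library was left out: without library 3 of shRNA3 they were 63, 140 and 121, and without its libraries 1 and 2 they were 62, 8 and 1. With only the 6 libraries compared, no member differed between shRNA1 and shRNA3, ZNF780B and ZNF358 included.

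Libraries 1 and 2 of shRNA3 were both below all 7 other hairpin libraries for 130 of 179 members (72.6%). The share was 69.6% of ZNF genes on other chromosomes (158 of 227), 26.0% of other protein-coding genes of chromosome 19 (230 of 886) and 39.0% of all genes. After TMM scaling the shares were 64.2% of members, 56.0% of ZNF genes elsewhere, 15.6% of other protein-coding genes of chromosome 19 and 28.8% of all genes. Of the 36 members silent in NC, 25 were lower in these 2 libraries than in any other hairpin library, and ZNF83 and ZNF726 were higher.

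Genes of the silencing machinery that KRAB zinc finger proteins recruit were examined as a list of 20, of which 19 were tested. For the mean of the hairpins 9 rose and 2 fell (27.9% and 32.2% of all genes), with a median of 0.50 against -0.03 over all genes. With each of the 3 hairpins 6 rose, TRIM28, CBX3, CHD3, DNMT1, UHRF1 and DNMT3B, and ATF7IP fell (16.0% and 19.7% of all genes). TRIM28, the corepressor itself, had 354, 377 and 342 CPM in NC, 657, 608 and 575 with shRNA1, 903, 869 and 898 with shRNA2, and 393, 406 and 947 with shRNA3. Every hairpin library exceeded every NC library, by 1.10 ± 0.18 on the log2 scale for the mean (SE; adjusted p = 2.14e-04). SETDB1, the histone methyltransferase, had 29.1 to 31.8 CPM in NC and 15 to 41.5 with hairpins and did not pass (adjusted p = 0.377, or 0.00137 without libraries 1 and 2 of shRNA3), while ATF7IP, which stabilises SETDB1, fell from 79.6 to 93.5 CPM in NC to 35.6 to 53.5 with hairpins.

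The genes of DNA methylation moved in 2 directions. UHRF1, which guides the maintenance methyltransferase to replicated DNA, rose from 50.1 ± 8.85 CPM (SD, n = 3) in NC to 230 ± 21.8, 228 ± 5.97 and 179 ± 97.8 with shRNA1, shRNA2 and shRNA3. DNMT1, that methyltransferase, rose from 128 ± 5.90 CPM to 297 ± 27.6, 372 ± 10.5 and 267 ± 107. DNMT3B, a de novo methyltransferase, rose from 14.3 ± 2.17 CPM to 45.4 ± 3.19, 44.3 ± 1.15 and 45.7 ± 3.81. DNMT3A fell for the mean, from 16.9 ± 2.45 to 10.2 ± 3.14, 9.27 ± 0.927 and 9.18 ± 3.02 CPM (log2 fold change -0.64, adjusted p = 0.0116). DNA methylation was not measured here, and the relation of these genes to the members was not tested.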

How the data were processed

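RNA sequencing of 12 SCC-15 libraries was analysed. The authors deposited 1 table of estimated counts per gene (13.8% of the values not whole), not scaled to a common total. The deposited estimated counts were made from reads with tools that the submitters' processing notes name as HISAT2, HTSeq 0.11.2 and GRCh38; annotation, strand and filters are not given in the sources used here. Counts were rounded. Levels are CPM of library totals. On and off states, bands (UCSC cytobands, gene midpoint) and promoters are descriptions.

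Tests used edgeR 4.0.16 (R 4.3.3): filterByExpr (minimum count 10, minimum total 15), TMM (0.771 to 1.11), a robust quasi-likelihood fit of 4 groups over 12 libraries, two-sided, adjusted over 17532 genes at 0.05. A member at 0 in a group was compared with a floor of 3 counts per library, which covers counting error only. ZNF85 and ZNF154 did not pass the filter. DESeq2 1.42.0 was an alternative, as were other filters, thresholds and left-out libraries; library totals and a group mean of 1 CPM were added after seeing the data.

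Members and lists were chosen with earlier results of these data known. Genes named are up to 8 on/off members per direction, up to 2 rising and 2 falling in each cluster by smallest change over hairpins, the 3 highest per kilobase, up to 2 specific to a hairpin and the silencing genes; neighbours in runs were named after values were seen. Replicate numbers in the titles did not pair libraries (mean correlation of deviations -0.00437 for 18 same-numbered library pairs), so no block was used.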

Additional observations from a re-analysis of the deposited data

Results flagged for a closer look

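Differences between hairpins under the same contrast with NC drew attention. By a test of the difference itself (edgeR's quasi-likelihood test), 16 members differed between shRNA1 and shRNA2, 38 between shRNA1 and shRNA3 and 4 between shRNA2 and shRNA3. These are 9.04%, 21.5% and 2.26% of the tested members, under the 12.3%, 30.0% and 8.40% of all genes, and with 1 library left out the counts ran from 3 to 63, 9 to 140 and 0 to 121. ZNF780B fell less with shRNA1 than with shRNA2, with a log2 difference of 1.78, and less than with shRNA3, with 1.40. Its levels with shRNA2 and shRNA3 were near the limit of 3 counts per library, so the size of these differences is uncertain. ZNF358 fell more with shRNA1, with log2 differences of -1.19 against shRNA2 and -1.01 against shRNA3. With only the 6 libraries compared, neither gene differed between shRNA1 and shRNA3.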

How the results depend on the processing

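Of 423 recomputed counts, 333 stayed within 1.5 times the count reported. Among the named genes only ZNF146, which passed no test, changed sign, but the balance of rises and falls turned: with shRNA3 to 43 and 49 by library totals, 31 and 32 with a mean of at least 50 counts and 49 and 98 without library 3 of shRNA3 (50 and 50 by DESeq2), and for the mean to 57 and 78 without that library. Called members with shRNA1, shRNA2, shRNA3 and the mean of the hairpins are given in that order. With a mean of at least 50 counts required, 33, 32, 31 and 32 rose and 13 and 18 fell with shRNA1 and shRNA2, 2 rose in 19p12 and 1 fell in 19q13.2. At an adjusted p under 0.01, 14, 22, 26 and 25 fell, with 1 in 19p12 and 9 in 19q13.4. With a log2 change of at least 1 also required, 27 fell for the mean and 1 in 19p12, where 1 fell with no filter too. Using only the 6 libraries compared, 35, 54 and 26 fell with the 3 hairpins and 33 rose with shRNA3. Without libraries 1 and 2 of shRNA3, 36, 52 and 23 fell with the 3 hairpins, 40 rose in 19q13.4, and 24 members were on with hairpins and off in NC. That number was 20 with on at 0.5 CPM, 5 with off at 0 counts and 25 with group means. Widening 19q13.2 to 19q13.12 through 19q13.31 gave 10 rising and 11 falling.

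The numbers of members differing between hairpins moved most. Between shRNA1 and shRNA2 they were 9 by library totals, 4 without a filter, 27 by DESeq2, 61 in the 6 libraries alone, 3 at 0.01, 7 with a log2 change of at least 1 and 62 without libraries 1 and 2 of shRNA3. Between shRNA1 and shRNA3 they were 23 by library totals, 22 without a filter, 0 in the 6 libraries alone, 8 at 0.01 and 8 without those libraries. Between shRNA2 and shRNA3 they were 1 by library totals, 23 by DESeq2, 0 in the 6 libraries alone, 0 at 0.01 and 1 without those libraries. With the replicate number as a block, shRNA1 and shRNA2 differed in 4 members and shRNA2 and shRNA3 in 2, and no other count moved past 1.5 times. Only 3 of 12 libraries correlated best with their own number.

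Leaving out each library in turn, falling members numbered 15 to 37, 24 to 52, 29 to 98 and 27 to 78, rising ones 51 to 80, 47 to 73, 46 to 53 and 52 to 61, and those differing between hairpins 3 to 63, 9 to 140 and 0 to 121. By band the falls were 1 to 3 in 19p12, 3 to 5 in 19q13.2 and 10 to 31 in 19q13.4. The upper ends for falls (37, 52, 98, 78, 5 and 31) came without library 3 of shRNA3, and the 27 without library 1 of NC. The cause was not tested. At this depth 3 counts are 0.153 to 0.174 CPM, so lower levels cannot be told from none.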
